A study of Mus musculus with 6 samples.

Results

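The 9 S100 genes S100a8, S100a9, S100a4, S100a6, S100a10, S100a11, S100a1, S100a13 and S100a16 were followed in ribosome-bound mRNA from mouse brain after stroke. They were taken by gene symbol, joining the cluster identifiers of the value table to the authors' gene symbols. Each of the 9 had 1 transcript cluster, the group of probes that reads a gene, out of 29458 genes tested. The array carried 17 S100 genes in all. The 9 were chosen with earlier results of these data known. They were the 9 of these 17 with the most positive differences, stroke minus control. S100 genes lower in stroke were thus among those left out, and the common direction of the 9 is not independent evidence. Stroke samples were 3 arrays from CD11brGFP transgenic mice collected at 24 h from a tMCAO (transient occlusion of the middle cerebral artery, a main brain artery that is blocked and reopened). Controls were 3 arrays from sham-operated CD11brGFP mice. All mice were 2 to 3 months old and carried a ribosomal protein, Flag/EGFP-RPL10a, under a promoter, that of CD11b, used by microglia, monocytes, macrophages and neutrophils. Tagged ribosomes were pulled down with their mRNA by translating ribosome affinity purification (TRAP), so a value combines transcript amount with ribosome loading. The labels give 6 mice and 3 biological replicates per group, do not say how mice were divided over arrays, and disagree on whether both sexes were used.

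S100 proteins are small calcium sensors of the EF-hand type, most of which form dimers and change shape when they bind calcium. S100A8 and S100A9 pair to form calprotectin, which is abundant in neutrophils and monocytes, binds metals, and acts outside cells as an alarmin through the receptors TLR4 and RAGE. S100A10 and S100A11 bind annexins at membranes, S100A6 and S100A4 bind cytoskeletal and signalling partners and are raised in motile or stressed cells, and S100A1, S100A13 and S100A16 are found in glia or neurons, among other cells.

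All 9 genes lie on mouse chromosome 3, in 2 blocks 2824.8 kb apart (RefSeq, GRCm38.p6, the mm10 assembly that the array annotation uses). The first block spans 184.7 kb, at chr3:90511034-90695721, and holds 12 of the S100 genes on the array, among them S100a1, S100a13, S100a16, S100a4, S100a6, S100a8 and S100a9. S100a11 and S100a10 form the second, at chr3:93520496-93564645. S100a1 and S100a13 point away from each other and overlap by 98 bases, and 204 bases of their promoter windows (250 bases before to 50 after the start) are shared. RefSeq gave a promoter window for 8 of the 9 genes. Short motifs were searched for on both strands: AP-1 (TGANTCA), C/EBP (TTGCNNAA), STAT (TTCNNNGAA) and 2 chosen after the sequences had been searched, the TATA box (TATAAA) and NF-kB (GGGANTTTC, in place of a longer, looser form that no window of these genes held). The windows of S100a8, S100a9, S100a4 and S100a11 are shown because the first 3 share a TATAAA match and the last holds 2 AP-1 matches; capitals mark every match, and each is written 5′ to 3′ on the gene's own strand.
S100a8 (chr3:90668821-90669120, plus strand): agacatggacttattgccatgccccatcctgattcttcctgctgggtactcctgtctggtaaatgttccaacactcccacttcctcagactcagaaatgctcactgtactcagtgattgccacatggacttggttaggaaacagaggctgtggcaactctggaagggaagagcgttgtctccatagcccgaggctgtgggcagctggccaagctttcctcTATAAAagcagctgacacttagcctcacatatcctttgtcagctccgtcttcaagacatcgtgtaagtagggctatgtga
S100a9 (chr3:90695672-90695971, minus strand): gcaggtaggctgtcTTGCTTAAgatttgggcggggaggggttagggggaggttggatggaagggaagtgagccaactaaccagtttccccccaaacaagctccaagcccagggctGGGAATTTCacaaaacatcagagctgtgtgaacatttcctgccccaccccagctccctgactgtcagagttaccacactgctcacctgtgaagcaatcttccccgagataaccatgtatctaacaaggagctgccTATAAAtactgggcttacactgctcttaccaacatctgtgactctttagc
S100a4 (chr3:90603520-90603819, plus strand): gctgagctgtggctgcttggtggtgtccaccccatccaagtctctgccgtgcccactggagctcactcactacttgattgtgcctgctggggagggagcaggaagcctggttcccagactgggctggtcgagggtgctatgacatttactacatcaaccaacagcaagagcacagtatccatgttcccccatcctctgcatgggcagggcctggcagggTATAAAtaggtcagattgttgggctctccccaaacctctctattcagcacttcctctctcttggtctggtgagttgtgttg
S100a11 (chr3:93520246-93520545, plus strand): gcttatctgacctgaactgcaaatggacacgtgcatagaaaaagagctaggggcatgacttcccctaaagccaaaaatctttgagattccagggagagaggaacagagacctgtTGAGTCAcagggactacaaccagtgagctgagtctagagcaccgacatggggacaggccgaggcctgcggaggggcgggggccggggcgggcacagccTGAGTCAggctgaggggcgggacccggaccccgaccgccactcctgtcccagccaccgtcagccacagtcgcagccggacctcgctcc

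The TATAAA match began 30 bases before the annotated start in S100a8 and 31 bases before it in S100a4, while in S100a9 it lay at the annotated start itself. Such a match was present in 13.6% of all 32851 promoter windows. The S100a9 window also held a C/EBP match, TTGCTTAA, 236 bases before the start and an NF-kB match, GGGAATTTC, 135 bases before it. Over all windows, 10.8% held a C/EBP match and 1.1% had an NF-kB match of the form chosen after the search. The longer form that it replaced was in 5.6% of all windows, so the 1.1% is no measure of how rare the S100a9 match is. S100a11 carried TGAGTCA at 136 and at 38 bases before its start. An AP-1 match was present in 7.8% of windows, and the other gene with one was S100a16. No window of these genes held the STAT letters, which 8.3% of all windows did. No match overlapped another, and none is shown to be a bound site.

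At 24 h, all 9 genes averaged more signal in stroke than in control, and none passed the threshold over all genes (limma, adjusted p under 0.05). The differences were between 0.25 and 1.24 on the log2 scale with a median of 0.69, against a median of -0.01 and 47.2% of genes above 0 over all genes tested. In 6 of the 9, every stroke array lay above every control array, as for 6.34% of all genes; none lay wholly below control, as 4.89% of all genes did. At an unadjusted p under 0.05, 7 of the 9 were higher and 0 lower, against 3.69% and 2.07% of all genes. At least 2-fold differences were seen for S100a8, S100a6 and S100a9, 3 of the 9, and for 0.601% of all genes. Leaving out 1 array moved their log2 differences over 1.05 to 1.45, 0.90 to 1.53 and 0.81 to 1.26. Of these genes, S100a8 alone stayed at least 2-fold whichever array was left out. Over all genes, 0.421% were called higher and 0.00339% lower. When arrays of the same number were treated as pairs, S100a8, S100a6 and S100a9 passed the threshold, at adjusted p = 0.0165, 0.0227 and 0.0432; 0.519% of all genes were called higher in that blocked fit. Over the 17 S100 genes on the array, 12 had a difference above 0 and the median was 0.25.

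**Figure D1:**
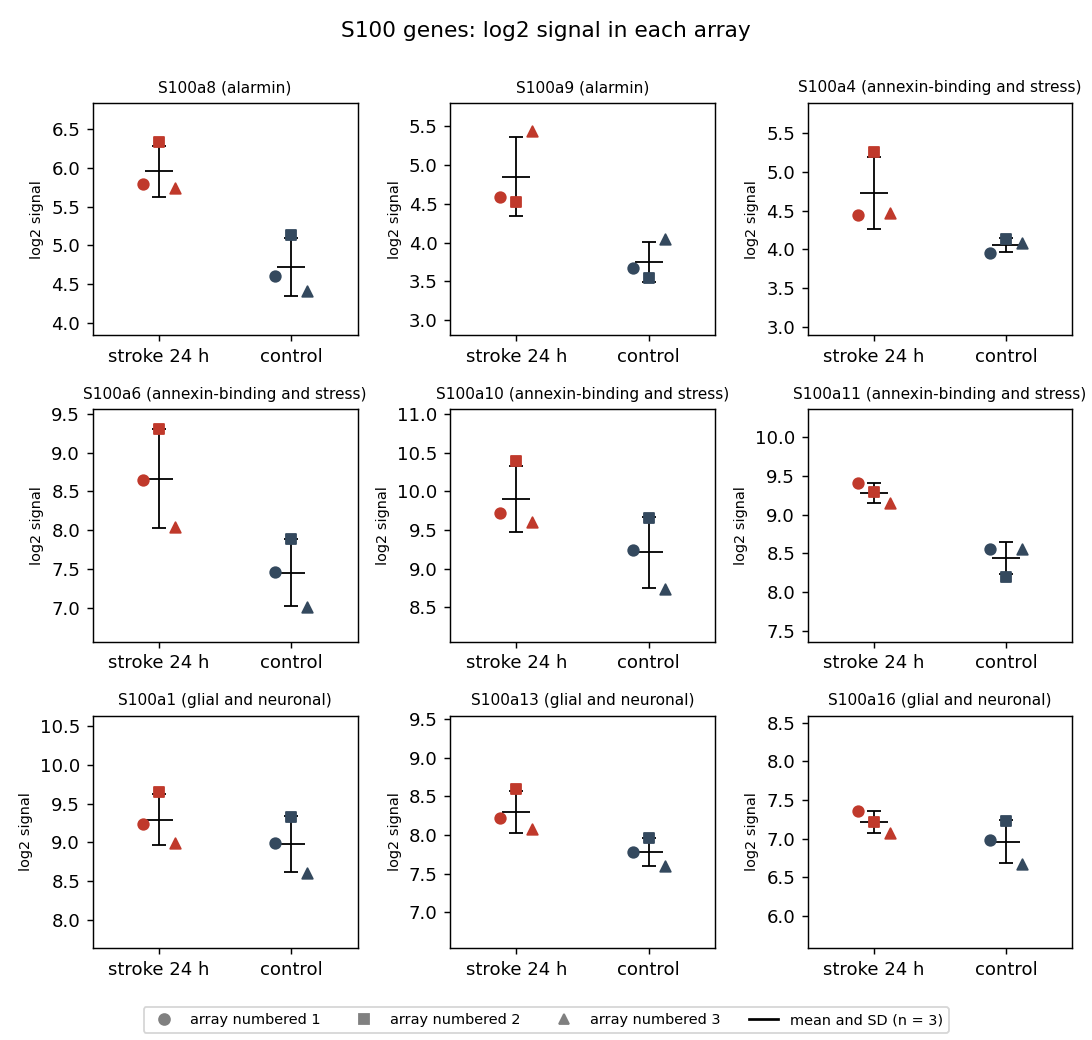
Log2 signal of each of the 9 S100 genes in every array, stroke left and control right, with symbols for the array number and bars for the mean and SD of 3 arrays; each panel spans 3 log2 units around the gene's mean. Stroke and control arrays are separated for S100a8, S100a9, S100a4, S100a6, S100a11 and S100a13 and overlap for S100a10, S100a1 and S100a16.

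The alarmin S100a8 had log2 signals of 5.79, 6.33 and 5.74 in the stroke arrays, against 4.61, 5.13 and 4.41 in the control arrays. Every stroke array lay above every control array, and the array numbered 2 was the highest in both groups. The means were 5.96 ± 0.33 in stroke and 4.72 ± 0.37 in control (SD, n = 3 each), a 2.36-fold difference (log2 difference 1.24, SE 0.23, 95% interval 0.70 to 1.78). Its limma adjusted p was 0.111, and only 0.367% of all genes had a larger difference. Within arrays of the same number, which no label ties together, the difference was 1.19, 1.20 and 1.33, varying less than the signals within either group. Without both arrays numbered 2 it was 1.26 with an adjusted p of 0.0393, where 0.238% of all genes were called higher.

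S100a9, the other chain of calprotectin, had 4.59, 4.53 and 5.44 in stroke, against 3.67, 3.54 and 4.04 in control. The groups did not overlap, and the array numbered 3 was the highest of each group. The means were 4.85 ± 0.51 in stroke and 3.75 ± 0.26 in control, 2.14-fold apart (log2 difference 1.10, SE 0.26, interval 0.50 to 1.70, adjusted p = 0.257). The same-numbered differences were 0.91, 0.99 and 1.40. The 2 calprotectin genes thus differed between the groups by like amounts but varied differently among arrays of a group: with each gene's mean removed, S100a8 stood above S100a9 by 0.77 and 0.56 in the stroke and control arrays numbered 2, and below it by 0.73 and 0.66 in those numbered 3. The root mean square distance between their centred signals was 0.57 log2 units, the distance of S100a8 from S100a6 being 0.22. Both alarmins had control signals below the array medians of 5.23 to 5.35, and the stroke mean of S100a9 was below them too. No detection calls were used, so whether these signals exceed background is not known, and each fold is one of measured signal.

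Calprotectin is best known from neutrophils and monocytes, and markers of both were read in the same arrays. Of 20 neutrophil markers, 3 rose (Lcn2, Il1r2 and Stfa2l1), 0 fell and 17 did not pass, with a median difference of 0.16; the list's mean signal was 4.87 to 4.90 in stroke arrays and 4.47 to 4.66 in control arrays. The neutrophil genes Ly6g, Camp and Ngp differed by 0.22, -0.01 and 0.01, and the granule enzyme genes Mpo and Elane by -0.15 and -0.26, all at mean signals under 5 and without passing. Fpr2, a formyl peptide receptor gene, Csf3r, the receptor gene for the growth factor G-CSF, and the protease genes Mmp8 and Mmp9 differed by 0.56, 0.51, 0.35 and 0.23, also without passing. In 6 of the 20 every stroke array lay above every control array, as for 6.34% of all genes. In 1 every stroke array lay below, as for 4.89% of all genes. At an unadjusted limma p under 0.05, 5 were higher and 0 lower, against 3.69% and 2.07% of all genes. Of the 3 that rose, Lcn2 alone stayed past the threshold whichever array was left out. Reactive astrocytes also express Lcn2, and it is in that marker list too. Leaving out 1 array gave limma adjusted p of 0.0519 to 0.145 for Il1r2 and up to 0.25 for Stfa2l1. Stfa2l1 averaged 3.86 in stroke and 2.62 in control, below the array medians of 5.23 to 5.35 in both groups. Of 15 monocyte markers, Cd44, which other cells also express, rose, with an adjusted p of up to 0.0783 when 1 array was left out, and 14 did not pass (median 0.34; mean signal 5.37 to 5.47 in stroke and 5.01 to 5.05 in control). Ccr2 and Ly6c2 differed by 0.45 and 0.34. Itgam, which encodes CD11b, averaged 7.01 ± 0.07 in stroke and 6.17 ± 0.40 in control (adjusted p = 0.276). The part of infiltrating cells in the alarmin signal was not tested, and more cells of a type cannot be told apart from more mRNA per cell.

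Among the annexin-binding and stress genes, 4 of 4 averaged more in stroke and 0 passed, with a median of 0.77. S100a6 (calcyclin), a gene linked to proliferation and to reactive glia, had 8.65, 9.31 and 8.04 in stroke, against 7.46, 7.88 and 7.01 in control. The lowest stroke array was only 0.16 above the highest control array, although the same-numbered differences were 1.19, 1.43 and 1.03. The means were 8.67 ± 0.63 in stroke and 7.45 ± 0.43 in control (2.32-fold, log2 difference 1.22, SE 0.33, interval 0.45 to 1.98, adjusted p = 0.397). Cacybp, whose product binds S100A6, averaged 10.17 ± 0.18 in stroke and 9.96 ± 0.11 in control and did not pass.

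S100a11, which encodes a partner of annexin A1, had 9.40, 9.29 and 9.15 in stroke, against 8.55, 8.20 and 8.56 in control. Its stroke arrays lay within 0.26 of each other and all above control. The means were 9.28 ± 0.13 in stroke and 8.44 ± 0.21 in control, 1.79-fold apart (log2 difference 0.84, SE 0.16, interval 0.49 to 1.20). At 0.0995 its adjusted p was the lowest of the 9, and it remained above the threshold in the fit with pairs, at 0.0817. A related pseudogene, S100a11-ps, whose transcripts the same probes may also bind, had 6.45, 6.23 and 6.48 in stroke and 6.41, 6.05 and 5.91 in control on its brighter cluster (difference 0.26, adjusted p = 0.9998).

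S100a10, which encodes the light chain that binds annexin A2 without needing calcium, had 9.72, 10.40 and 9.60 in stroke, against 9.24, 9.66 and 8.73 in control. The groups overlapped through the array numbered 2 of the controls, while all 3 same-numbered differences were positive (0.47, 0.74 and 0.87). The means were 9.90 ± 0.43 in stroke and 9.21 ± 0.46 in control (1.62-fold, log2 difference 0.69, SE 0.28, interval 0.04 to 1.34, adjusted p = 0.829). S100a4 (metastasin), which binds nonmuscle myosin IIA, had 4.45, 5.26 and 4.47 in stroke, against 3.95, 4.13 and 4.08 in control. All stroke arrays were above control, with the one numbered 2 far above the other two. The log2 difference was 0.67 (SE 0.23, interval 0.15 to 1.19, adjusted p = 0.619) and 0.45 without both arrays numbered 2. The control signals of S100a4 and its stroke mean of 4.73 were also below the array medians.

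The binding partners and receptors of S100 proteins gave 1 gene past the threshold. Of 26 measured genes of the list, Anxa2 rose, 0 fell and 25 did not pass, with a median of 0.17. At an unadjusted limma p under 0.05, 5 were higher and 1 lower, against 3.69% and 2.07% of all genes. With pairs Tgm2 passed too (adjusted p = 0.0439, against 0.138 without). Tgm2, a transglutaminase gene, averaged 7.79 ± 0.33 in stroke and 6.82 ± 0.19 in control, a log2 difference of 0.97 with the groups apart. Anxa2, the annexin that pairs with S100A10, had 7.77, 7.89 and 7.84 in stroke, against 6.12, 6.25 and 6.26 in control. Its arrays hardly varied within a group, and the 3.08-fold difference (log2 1.62, SE 0.13) passed at an adjusted p of 0.00357, or 0.0071 with pairs. Anxa1, the annexin partner of S100A11, averaged 5.83 ± 0.31 in stroke and 5.19 ± 0.09 in control (adjusted p = 0.412), and Myh9, the myosin heavy chain bound by S100A4, 8.46 ± 0.30 in stroke and 8.07 ± 0.17 in control (0.914). The scaffold gene Ahnak, which binds the annexin A2 and S100A10 complex, averaged 6.64 and 6.38 in stroke and control. Of the alarmin receptors, Tlr4 averaged 5.30 ± 0.09 in stroke and 5.10 ± 0.07 in control, and Ager, which encodes RAGE, 5.52 ± 0.24 in stroke and 5.92 ± 0.17 in control; neither passed (adjusted p = 0.9998 and 0.840). Ly96, which encodes the TLR4 co-receptor MD-2, averaged 7.49 ± 0.25 in stroke and 6.71 ± 0.19 in control, and the scavenger receptor gene Cd36 5.31 ± 0.11 in stroke and 4.69 ± 0.33 in control. Every stroke array was above every control array for both, and neither passed (adjusted p = 0.201 and 0.503). Tgm2, Ly96 and Cd36 were named after their values were seen.

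The glial and neuronal genes had the smallest differences of the 9, with a median of 0.32 and 0 of 3 passing. S100a13, whose product takes part in the release of FGF1 from cells, had 8.22, 8.60 and 8.07 in stroke, against 7.78, 7.97 and 7.60 in control. The groups did not overlap, and the same-numbered differences of 0.45, 0.63 and 0.48 were close to each other. Its log2 difference was 0.52 (SE 0.18, interval 0.11 to 0.93, adjusted p = 0.650). Fgf1 itself averaged 8.89 ± 0.08 in stroke and 8.74 ± 0.32 in control, and Syt1, a further partner in that release, 12.49 and 12.59.

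S100a1, best known as a regulator of calcium cycling in heart muscle and also present in brain, had 9.24, 9.65 and 8.99 in stroke, against 8.99, 9.33 and 8.61 in control. The groups overlapped, and the log2 difference of 0.32 had an interval from -0.22 to 0.85 (adjusted p = 0.9998). S100a16 had 7.35, 7.21 and 7.07 in stroke, against 6.98, 7.23 and 6.68 in control. It was the 1 gene of the 9 without 3 positive same-numbered differences (0.37, -0.01 and 0.39), and its interval ran from -0.15 to 0.65 around 0.25. Leaving out 1 array moved the difference over 0.13 to 0.49 for S100a1 and 0.11 to 0.38 for S100a16. Whether the alarmins, the annexin-binding and stress genes and these genes differ from each other was not tested. S100a1 and S100a13 had centred signals 0.15 log2 units apart (root mean square), the smallest distance among the 36 pairs of the 9 genes. S100a4 and S100a13 were 0.18 apart, and S100a1 and S100a16 0.19. The distance is not scaled by how much a gene varies, so genes that vary little over the arrays tend to lie close. A small distance is thus no measure of shared regulation. Whether the promoter sequence that S100a1 and S100a13 share has a part in their distance was not tested.

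**Figure D2:**
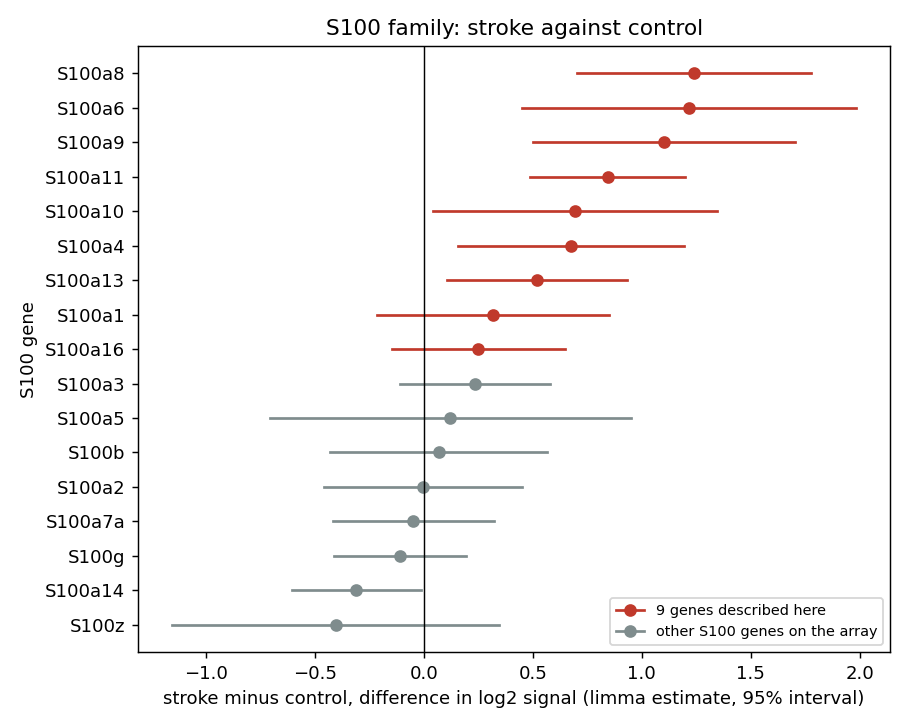
Difference in log2 signal, stroke minus control, with 95% limma intervals for the 17 S100 genes on the array, in red for the 9 described genes and in grey for the others. The intervals of 7 of the 9 lie above 0, from S100a8 at 1.24 to S100a13 at 0.52.

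Signed differences of the 8 S100 genes outside the 9 ran from -0.41 to 0.23, the highest just under the 0.25 of S100a16. S100b, the family member most used as an astrocyte marker, had 8.79, 9.15 and 9.13 in stroke, against 8.84, 9.40 and 8.63 in control. The groups overlapped, and the log2 difference of 0.07 had an interval from -0.43 to 0.57. S100a14 was at 6.22, 6.14 and 6.14 in stroke, against 6.46, 6.59 and 6.38 in control, below control in every array (log2 difference -0.31, adjusted p = 0.840). The differences of S100a3, S100a5, S100a7a, S100g and S100z were 0.23, 0.12, -0.05, -0.11 and -0.41 (S100z -0.81 to -0.10 leaving out 1 array), and that of S100a2, named after its value was seen, was -0.01. None of these 8 passed in limma. At an unadjusted limma p under 0.05, 1 was lower and 0 higher, against 2.07% and 3.69% of all genes. S100a14, S100a3, S100a2, S100a5 and S100a7a lie in the same block of chromosome 3 as S100a6, S100a8 and S100a9, between genes with larger differences.

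**Figure D3:**
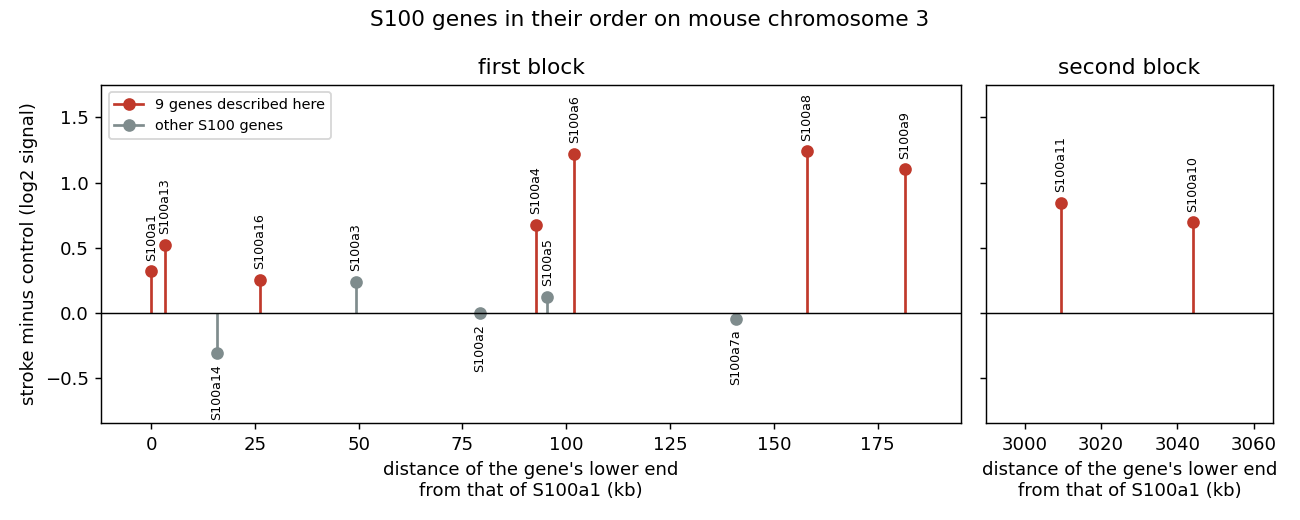
Difference in log2 signal, stroke minus control, of the 14 S100 genes on chromosome 3, placed by distance in kb from S100a1, with a panel for each block. The genes with differences above 1 (S100a6, S100a8 and S100a9) lie toward the far end of the first block from S100a1. Of the genes near or below 0, S100a14 and S100a2 come before S100a6, and S100a7a lies between S100a6 and S100a8.

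Array number moved with several of these genes. Of the 9, 6 were highest in stroke array 2 among stroke arrays and 7 in control array 2 among control arrays; S100a9 was highest in the arrays numbered 3. Over all genes the arrays numbered 2 stood apart along the first principal component, at 34.61 in stroke and 48.89 in control, with the other 4 at or below -14.44. Without both arrays numbered 2, 8 of the 9 genes had stroke arrays above control arrays. Groups of fewer arrays separate more easily, and the share of all genes so separated was not computed, so this count is no stronger result. S100a8 was the 1 gene of the 9 past the threshold there, where 0.238% of all genes were called higher. The labels do not say what a number stands for.

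**Figure D4:**
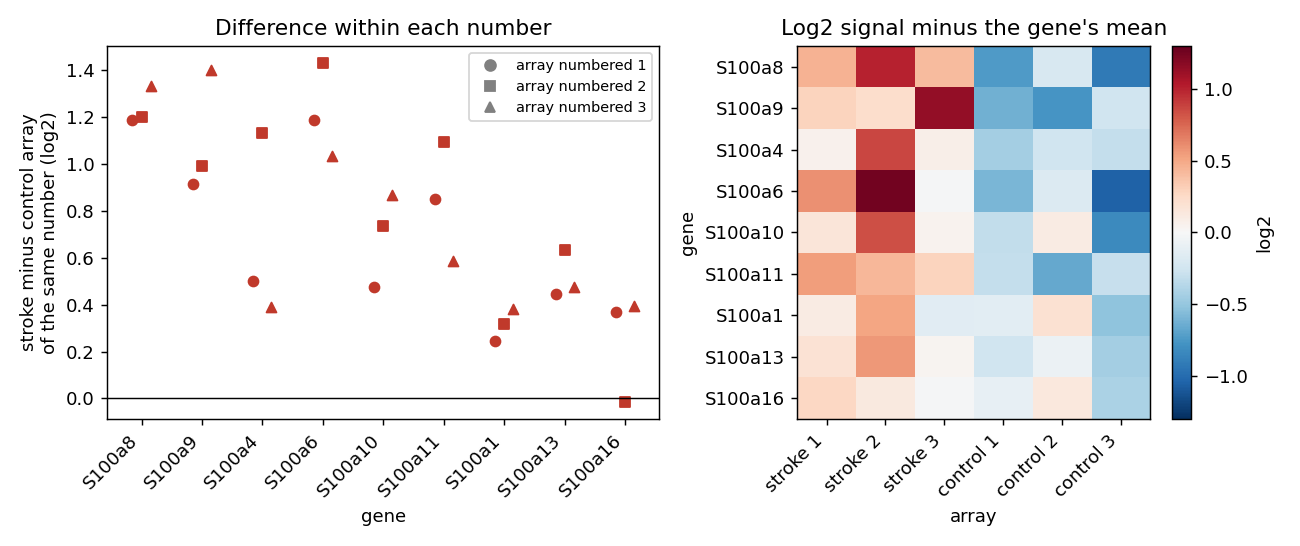
Left, difference in log2 signal between the stroke and the control array of the same number for each of the 9 genes; right, log2 signal of each array minus the gene's mean over the 6 arrays. All points are above 0 except S100a16 in the arrays numbered 2, at -0.01, and S100a9 is highest in stroke array 3 while S100a8 is highest in stroke array 2.

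Markers used for reactive astrocytes, some of which other cells also express, were read in the same arrays. Of 20 reactive astrocyte markers, among them Timp1, Serpina3n and Vim, 12 rose and 8 did not pass, and 6 of the 12 stayed past the threshold whichever array was left out (median 1.45; Lcn2 and Cd44 are among the 12; mean signal 7.21 to 7.38 in stroke and 5.62 to 5.72 in control). With pairs Hspb1, a heat shock protein gene, passed too (log2 difference 2.33, adjusted p = 0.0081, against 0.0604 without). The 9 measured general astrocyte markers had a median of 0.32 and 0 passed, and 13 homeostatic microglia markers a median of 0.14 and 0 passed. Neuron markers had mean signals of 11.05 to 11.15 in stroke and 11.04 to 11.15 in control, so RNA of cells that the CD11b promoter should not tag was present. Fibroblast, ependymal, oligodendrocyte, endothelial and lymphocyte markers gave 0 genes past the threshold, with medians of 0.13, 0.11, 0.03, -0.06 and -0.10. Which cells gave the S100 signal was not tested. Rpl10a averaged 10.42 ± 0.06 in stroke and 10.34 ± 0.15 in control.

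For each S100 gene at least 2-fold apart, the 3 genes with the nearest centred signals over the 6 arrays were looked up, as a description. For S100a8 the nearest was Fcer1g, the Fc receptor gamma chain, at a root mean square distance of 0.08 log2 units. Stfa2l1, a stefin gene of neutrophils with dim mean signals of 3.86 in stroke and 2.62 in control, followed at 0.13. The galectin gene Lgals1 was also at 0.13. Fcer1g (0.18), the actin-binding gene Tagln2 (0.19) and Lgals1 (0.21) were nearest to S100a6. Those nearest to S100a9 were Cd300ld, a myeloid surface receptor, at 0.18, B3gnt5, a glycosyltransferase gene, at 0.20, and Naip2, an inflammasome sensor, at 0.21, with no gene shared with S100a8. Fcer1g averaged 9.33 in stroke and 8.09 in control, a log2 difference of 1.24 that did not pass (adjusted p = 0.226, and 0.0167 with pairs).

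In the authors' deposited table the same genes also missed the 0.05 level after adjustment. It lists S100a8 at 2.19-fold with an adjusted p of 0.1316, S100a11 at 1.65-fold with 0.1169, S100a9 at 1.81-fold with 0.2998 and S100a6 at 2.31-fold with 0.4584. The authors' averages are not the means used above: for S100a9 they are 4.56 in stroke and 3.7 in control. Their folds and those given above thus rest on unlike averages.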

How the data were processed

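The value table, as deposited by the authors, holds log2 signals of 41345 transcript clusters on 6 Affymetrix MoGene-2_0-st arrays, processed in Transcriptome Analysis Console 3.0 per the series' design text. The summarisation and normalization methods are not stated in those sources. The other deposited table, compared with it, gives the authors' log2 averages, a signed fold score (minus the inverse where stroke is lower) and p-values, per the file headers. Clusters with 1 symbol (29971) were reduced to 29458 genes, keeping the brightest cluster. The 2 groups were tested with limma 3.58.1 (lmFit, eBayes) in R 4.3.3, with Benjamini-Hochberg adjustment over all genes, no filter on dim genes and a threshold of 0.05. In simulated data with independent noise for each gene and array, the mean estimates lay near the changes put in. This does not show that changes of the size seen here would pass the threshold. The 9 genes, the lists and the rule for named genes (the S100 genes, listed partners, the 3 nearest patterns of genes at least 2-fold apart, Itgam, Rpl10a) were chosen with earlier results of these data known. Markers were counted by list, and those named singly were picked after their values were seen.

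Stroke and control share replicate numbers in the titles, with no label tying them. Deviations from the group means correlated across genes at r = 0.299, 0.576 and 0.39 for the numbers 1, 2 and 3. Stroke array 1 with control array 3 gave 0.237, and stroke array 3 with control array 1 gave 0.128. The remaining unlike numbers gave negative values. The tie was thus clearest for the number 2, and weak for telling 1 from 3. The main fit had no block, and pairs were an alternative taken from the data and not from the labels. A fit with the number as a block is given where it changes a call. The number of arrays limits precision; 3 against 3 arrays allow an exact permutation p no smaller than 0.1, so none was used. Alternatives were quantile scaling, median centring, 2 filters, trend, robust, array weights, mean over clusters, clusters with several symbols, an ordinary test, and leaving out arrays. Promoters and positions are RefSeq, GRCm38.p6.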

Additional observations from a re-analysis of the deposited data

How the results depend on the processing

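All 9 S100 genes kept a positive difference in each of 168 refits over 19 alternatives. Many of these could not change the sign. The block, trend, robust, ordinary test, filters and cluster choices left the difference of these genes as it was and altered only p-values. The 9 also had the most positive differences of the S100 genes, so the count is not a test of their direction. With any single array left out 0 of 9 passed (limma; 5 to 7 at an unadjusted p under 0.05), and in the other refits 0 did except in these: with the replicate block 3 were called higher (S100a8, S100a9, S100a6), with array weights 2 (S100a8, S100a11), in an ordinary test that asked for 2-fold and an unadjusted p below 0.05, 2 (S100a8, S100a9), and without both arrays numbered 2 1 (S100a8). Over all 29458 genes, 124 higher became 153 with the block, 214 with array weights and 70 without both arrays numbered 2. The unadjusted 2-fold test called 163 higher. Leaving out 1 array gave 25 to 73 (limma, 895 to 1259 at an unadjusted p under 0.05). The ordinary test gave 0 after adjustment (1130 at an unadjusted p under 0.05). The 1 lower gene became 3 with the block, with array weights and in the unadjusted 2-fold test, 0 in the ordinary test (711 unadjusted) and without both arrays numbered 2 (973 unadjusted, limma), and 0 to 1 leaving out 1 array.

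Signs turned for flat genes that were not called: leaving out 1 array gave -0.28 to 0.40 for S100a5, -0.16 to 0.079 for S100a7a, -0.097 to 0.29 for S100b, -0.21 to 0.17 for S100a2 and -0.001 to 0.15 for Rpl10a. S100a5 was at -0.0024 without both arrays numbered 2, where S100a2 was at 0.21, and S100a2 was at 0.019 with quantile scaling and 0.19 with array weights. The cause was not tested. Anxa2 passed in all but the ordinary test (0.156). Control signals below the array medians limit what can be said of S100a8, S100a9 and S100a4. The stroke means of S100a9 and S100a4, 4.85 and 4.73, were below those medians too.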
